A study of Mus musculus with 10 samples.

Results

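The genes described here are 31 genes of astrocytes, the star-shaped glial cells of the brain, measured by RNA sequencing in the hippocampus of Dp1Tyb and wild-type (WT) mice. They were chosen by name, as genes that mark astrocytes or their reactive state, and all 31 were found among the 43629 genes of the count table. Dp1Tyb mice, with the genotype Dp(16Lipi-Zbtb21)1TybEmcf, are a model of Down syndrome, in which a 22.4 Mb segment of mouse chromosome 16, from Lipi to Zbtb21, is duplicated and its genes are present in 3 copies. The whole hippocampus of 5 Dp1Tyb and 5 WT mice was sequenced, with 1 library per mouse. Both genotypes carried the strain label C57BL/6J.129P2 and were labelled as 18 weeks old. The methods of the study state that all mice were backcrossed to C57BL/6JNimr, and give them as male littermates of a slightly greater age. None of the 31 genes lies in the duplicated segment, so each was present in the usual number of copies in both genotypes, and the comparison asks whether the genes of this cell type differed in level when other genes were duplicated.

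Astrocytes take up the glutamate that neurons release and convert it to glutamine. They buffer potassium and water around synapses and blood vessels, are coupled to each other by gap junctions, and supply neurons with lipids and metabolites. After injury, in inflammation and in many brain diseases they become reactive, a state in which the intermediate filament protein GFAP rises. The adult hippocampus also holds radial glia-like stem cells, which share Gfap, Sox2, Sox9 and Hes5 with astrocytes.

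Total counts ranged from 18227684 to 43692270 per library, and levels are given in CPM, which are counts scaled to a common library size with TMM factors. Astrocyte genes were well covered, as 28 of the 31 had at least 100 counts in every library, and their summed level lay between 11448 and 12920 CPM in all 10 libraries. Among the marker lists of other cells and tissues, libraries differed most in genes of the choroid plexus, the secretory tissue that lies against the hippocampus in the ventricle. The summed level of 9 choroid plexus genes was between 427.5 and 5424 CPM in the WT libraries, and 42.8 and 51.3 CPM in Dp1Tyb libraries 1 and 4, against 1446 to 3868 CPM in the other Dp1Tyb libraries. For genes whose fold change moved by over 1.5 times without these 2 libraries, that value is also given, except where the fold change was near 0.

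Between genes, levels are compared as RPKM, in which CPM is divided by the exon length of the gene in kilobases, here the mean over the 10 libraries. Cst3 stood first with 620.1 RPKM, followed by Sparcl1 with 578 RPKM, Apoe with 491 RPKM and Glul with 329 RPKM. Clu, Aldoc, Slc1a2 and Ndrg2 lay between 197 and 239 RPKM, and Gfap was the ninth with 94.2 RPKM. At the other end were Hes5 with 2.66 RPKM, Cd44 with 0.684 RPKM and Lcn2 with 0.583 RPKM. The leading members Cst3 and Apoe are also made by microglia, and Clu and Cst3 by the choroid plexus, so bulk levels of these genes do not come from astrocytes alone. Of the 30 neighbouring pairs in this order, 21 had ranges over the 10 libraries that overlapped. The order was separated by gaps without overlap below Apoe, Glul, Ndrg2, Gfap, Slc1a3, Mlc1, Sox9, Slc14a1 and Hes5, and all genes from Ntsr2 (28.8 RPKM) to Sox9 (6.74 RPKM) overlapped with their neighbours.

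**Figure D1:**
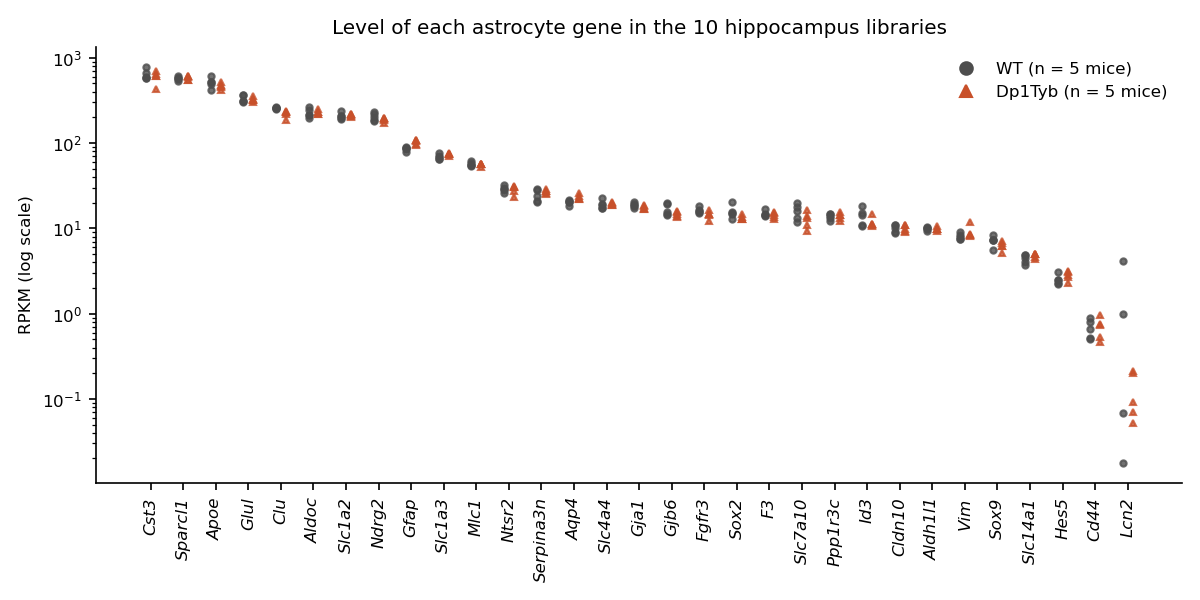
Level of each of the 31 astrocyte genes in RPKM on a log axis, ordered by the mean, with 1 point per mouse (circles, WT, n = 5; triangles, Dp1Tyb, n = 5). Levels run from 620.1 RPKM for Cst3 to 0.583 RPKM for Lcn2, whose count of 0 in WT library 3 cannot be drawn on a log axis.

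Of the 31 genes, 30 passed the filter on low counts and were tested together with all other genes by edgeR's quasi-likelihood test, and only Lcn2 did not pass. A single gene, Gfap, had an adjusted p under 0.05, and it was higher in Dp1Tyb. That is 1 of 30 astrocyte genes, where 1.11% of all 17237 tested genes were called, 0.87% as higher and 0.238% as lower in Dp1Tyb. An unadjusted p under 0.05 was found for 6 of the 30 (20%), against 14.4% of all tested genes: Gfap, Aqp4 and Slc1a3 had the higher level in Dp1Tyb, and Clu, Fgfr3 and Sox2 the lower level. Over all tested genes, 7.97% passed without adjustment with the higher and 6.4% with the lower level in Dp1Tyb. The genotypes did not overlap in CPM for 3 of the 30 (10%), Gfap, Aqp4 and Clu, against 3.68% of all tested genes. Log2 fold changes (Dp1Tyb against WT) were positive for 14 genes and negative for 16, with a median of −0.01, beside a median of 0.00 over all tested genes, of which 48.7% were positive. In bulk tissue, fewer cells of a type and less RNA per cell cannot be told apart, and the same holds for more cells and more RNA per cell.

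The 30 fold changes were small, from −0.31 (Slc7a10) to 0.26 (Gfap) on the log2 scale. Their 95% intervals had a median width of 0.304, and for 13 genes the interval lay within 1.2-fold in either direction. For 29 genes it lay within 1.5-fold, the exception being Slc7a10. The spread between mice of the same genotype had a median SD of 0.129 on the log2 scale, where all tested genes had 0.131. It was smallest for Mlc1 (0.0597) and largest for Cd44 (0.393).

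**Figure D2:**
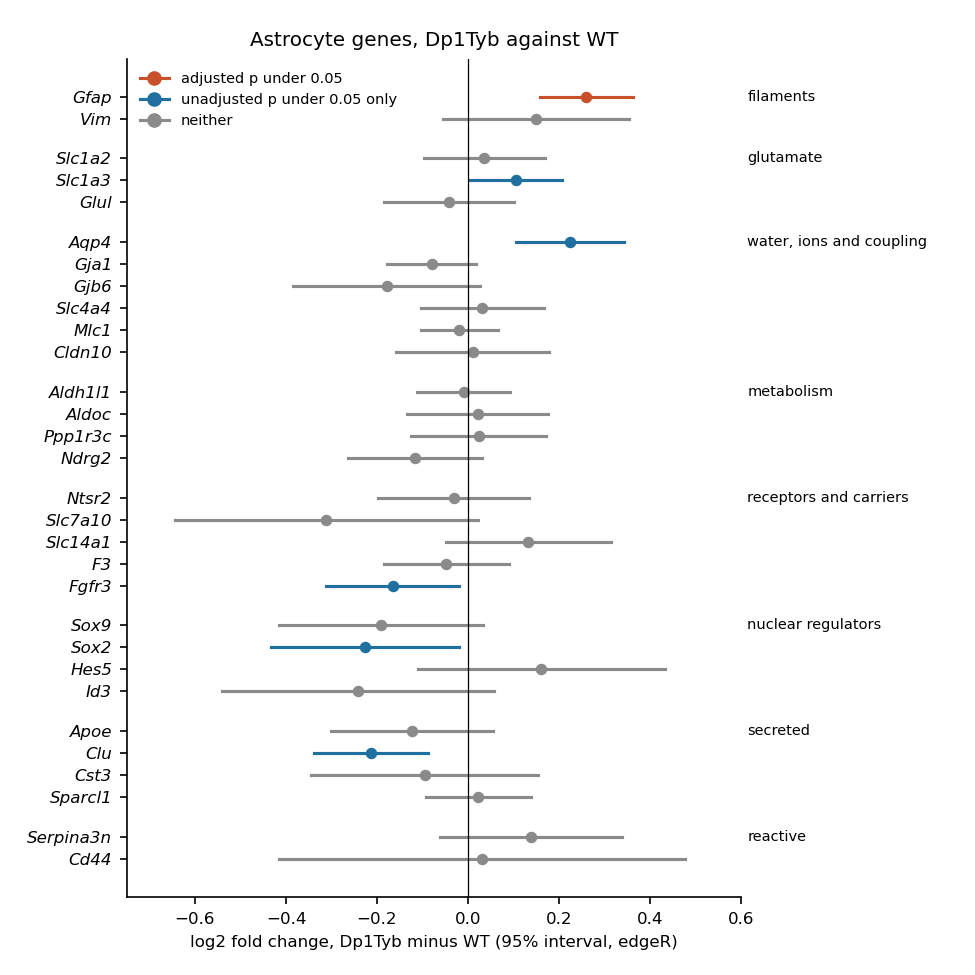
Log2 fold change of the 30 tested astrocyte genes, Dp1Tyb minus WT, with 95% intervals from edgeR (n = 5 mice per genotype), grouped by role. Gfap, at 0.26, is the only gene with an adjusted p under 0.05, and Aqp4, Slc1a3, Clu, Fgfr3 and Sox2 passed only without adjustment.

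Filament genes come first. Gfap (chromosome 11, 102887336 to 102900912, minus strand, GRCm38) encodes the glial fibrillary acidic protein, the intermediate filament by which astrocytes are usually stained. Its level in WT libraries 1 to 5 was 371, 361, 333, 375 and 367 CPM. In Dp1Tyb libraries 1 to 5 it was 404, 442, 408, 458 and 454 CPM. Every Dp1Tyb library was above every WT library. The mean rose from 362 ± 16.6 CPM (SD, n = 5) to 433 ± 25.7 CPM (SD, n = 5), by 0.26 ± 0.0473 SE on the log2 scale, which is a fold of 1.198 with a 95% interval of 1.116 to 1.285 (edgeR, adjusted p = 0.0167). The call was lost when Dp1Tyb library 2 was left out, where the log2 fold change was 0.25 and the adjusted p 0.0587. It was kept without Dp1Tyb libraries 1 and 4, at 0.26 with an adjusted p of 0.0426.

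The sequence directly before the RefSeq start of Gfap is shown because it is the member that was called, and because Notch and cytokine signals are known to act on this promoter. The 250 bases are those of RefSeq (GRCm38.p6, chr11:102897201-102897450, minus strand), and the capitals mark the letters TGGGAA on the opposite strand, the core that RBPJ, the DNA-binding partner of Notch, recognises.
Gfap: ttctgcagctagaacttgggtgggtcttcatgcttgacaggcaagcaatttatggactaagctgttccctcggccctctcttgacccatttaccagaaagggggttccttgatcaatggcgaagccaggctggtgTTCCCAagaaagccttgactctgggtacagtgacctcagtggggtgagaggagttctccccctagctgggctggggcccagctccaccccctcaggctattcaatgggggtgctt
The match begins 115 bases before the start. The RefSeq start is that of a protein-coding transcript. The annotated gene given above reaches further upstream through a processed transcript without a coding sequence, so the window lies within its coordinates. TGGGAA was found on either strand in 21.6% of 32851 mouse windows of this length, and in 11 of the 26 astrocyte genes with a RefSeq window. TTCNNNGAA, the core recognised by STAT factors, was in 7.02% of all windows on either strand, in 3 of the 26 and not in that of Gfap. Sequence further upstream was not searched, so this says nothing about the rest of the Gfap promoter. The background shares count windows and the member figures count genes, so they are unlike measures and were not compared. A match describes these letters and is not a binding site.

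Vim encodes vimentin, the other intermediate filament of astrocytes, which is also made by endothelial and ependymal cells. It ranged from 35.6 to 42.7 CPM in WT and from 38.4 to 55.6 CPM in Dp1Tyb, where library 5 alone was above the WT range. At 0.15 ± 0.0951 SE on the log2 scale it did not pass the test (edgeR, adjusted p = 0.496), and without Dp1Tyb library 5 it was at 0.04. The ratio of Gfap to Vim, per length, had a mean of 10.6 in WT and 11.6 in Dp1Tyb and did not pass the test (exact permutation test, two-sided, p = 0.27, adjusted over 4 ratios p = 0.444).

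**Figure D3:**
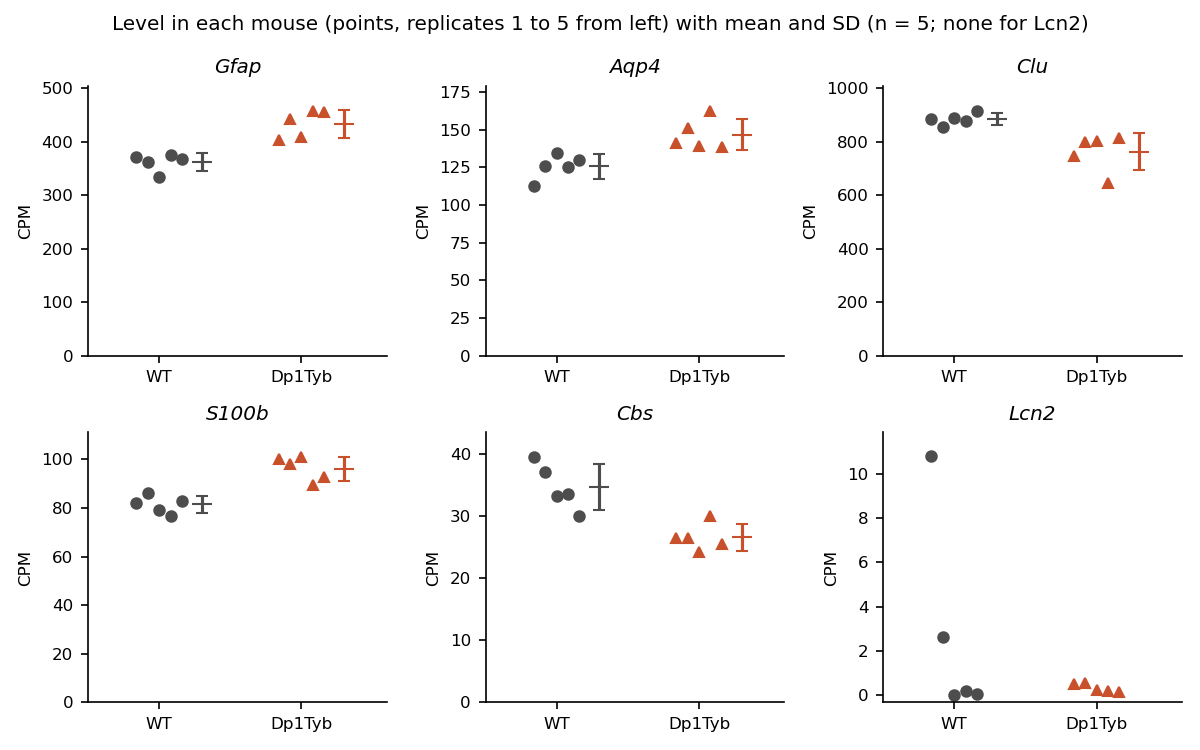
CPM of Gfap, Aqp4, Clu, S100b, Cbs and Lcn2 in every mouse (circles, WT; triangles, Dp1Tyb; replicates 1 to 5 from left), with bars for the mean and SD (n = 5), except for Lcn2. The genotypes do not overlap for the first 5 genes, and for Lcn2 WT library 1 stands at 10.8 CPM.

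None of the genes of glutamate handling was called. Slc1a2 encodes GLT-1, the main glutamate transporter of the forebrain, and was measured at 2495, 3110.3, 2559, 2737 and 2702 CPM in WT libraries 1 to 5. In the Dp1Tyb libraries it was at 2727, 2909, 2637, 2901 and 2774 CPM. The Dp1Tyb values lay inside the WT range, and the difference was 0.04 ± 0.0619 SE on the log2 scale, with a 95% interval of −0.10 to 0.17 (edgeR, adjusted p = 0.821). Slc1a3 encodes GLAST, the second glutamate transporter of astrocytes. Its WT levels were 562, 653, 555, 584 and 598 CPM, and its Dp1Tyb levels were 653, 636, 643, 642 and 602 CPM. WT library 2 was as high as the highest Dp1Tyb library, and the other WT libraries were below all Dp1Tyb libraries. The log2 fold change was 0.11 ± 0.0471 SE (edgeR, adjusted p = 0.33), and 0.07 with the choroid plexus covariate. Glul encodes glutamine synthetase, and its log2 fold change was −0.04 ± 0.0662 SE (edgeR, adjusted p = 0.804), with a range of 1017 to 1231 CPM in WT and 1016 to 1177 CPM in Dp1Tyb. Exons of Glul overlap those of Teddm2 on the opposite strand, so reads of the pair may not be separated. The ratio of Slc1a2 to Slc1a3, per length, had a mean of 2.99 in WT and 2.86 in Dp1Tyb and did not pass the test (exact permutation test, two-sided, p = 0.151, adjusted over 4 ratios p = 0.444).

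Among the genes of water, ions and coupling, Aqp4 stood apart. Aqp4 (chromosome 18, 15389496 to 15410982, minus strand) encodes aquaporin-4, the water channel of astrocyte endfeet around blood vessels. WT libraries 1 to 5 had 113, 126, 135, 126 and 129.6 CPM, and Dp1Tyb libraries had 141, 151, 139, 163 and 138 CPM. Every Dp1Tyb library was above every WT library, and the nearest were Dp1Tyb 5 and WT 3. The mean was 126 ± 8.08 CPM (SD, n = 5) in WT and 147 ± 10.3 CPM (SD, n = 5) in Dp1Tyb. Its log2 fold change of 0.22 ± 0.0548 SE (95% interval 0.11 to 0.34) missed the threshold after adjustment (edgeR, adjusted p = 0.0721). DESeq2, which called 3.2% of 15853 genes, gave 0.22 with an adjusted p of 0.0123, and edgeR without the filter on low counts gave an adjusted p of 0.0446. Without Dp1Tyb libraries 1 and 4 the log2 fold change was 0.19 and the adjusted p 0.223.

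Gja1 encodes connexin 43, the main gap junction protein of astrocytes. It was at 187, 207, 191, 195 and 179 CPM in WT libraries 1 to 5 and at 174, 194, 186, 179.7 and 173 CPM in Dp1Tyb. The groups overlapped, although Dp1Tyb libraries 1 and 5 were below all WT libraries, and the log2 fold change was −0.08 ± 0.0451 SE (edgeR, adjusted p = 0.44). Gjb6 encodes connexin 30, its partner in astrocyte coupling, and its difference was −0.18 ± 0.0954 SE on the log2 scale (edgeR, adjusted p = 0.417). WT libraries 1 and 2 were highest in Gjb6, at 53.4 and 51.8 CPM, while the other 8 libraries lay between 36.3 and 42.8 CPM, and without WT library 1 its difference was −0.11. The ratio of Gja1 to Gjb6, per length, had a mean of 1.14 in WT and 1.202 in Dp1Tyb and did not pass the test (exact permutation test, two-sided, p = 0.444, adjusted over 4 ratios p = 0.444). Slc4a4, the sodium bicarbonate cotransporter, Mlc1, a membrane protein of the endfeet, and Cldn10, a claudin, had log2 fold changes of 0.03, −0.02 and 0.01, and none passed the test.

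The metabolic genes included the general markers of the cell type and gave no call. Aldh1l1 encodes an enzyme of folate metabolism and is used to label astrocytes throughout the brain. Its WT levels were 45.5, 47.1, 44.4, 42.4 and 45.5 CPM, and its Dp1Tyb levels were 44.5, 48.3, 44.5, 41.7 and 44.3 CPM. The genotypes overlapped almost wholly, with means of 45.0 ± 1.72 and 44.7 ± 2.36 CPM (SD, n = 5 each). The log2 fold change was −0.01 ± 0.0471 SE, and its 95% interval of −0.11 to 0.09 spans folds of 0.926 to 1.066 (edgeR, adjusted p = 0.947). Aldoc, a glycolytic aldolase, and Ppp1r3c, a regulatory subunit that directs a phosphatase to glycogen, each had a log2 fold change of 0.02. Ndrg2, a cytoplasmic protein of mature astrocytes, had −0.12 ± 0.068 SE (edgeR, adjusted p = 0.457), and −0.07 without WT library 2.

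Of the 5 receptors and carriers, only Fgfr3 had an unadjusted p under 0.05. Fgfr3 encodes a fibroblast growth factor receptor that is enriched in astrocytes, and was at 115, 109, 116, 130.3 and 111 CPM in WT libraries 1 to 5. In Dp1Tyb it was at 105, 102, 88.4, 117 and 106 CPM. Dp1Tyb library 4 lay within the WT range and the other Dp1Tyb libraries below it, and the difference was −0.17 ± 0.0678 SE on the log2 scale (edgeR, adjusted p = 0.293). Slc7a10 encodes Asc-1, a transporter of small neutral amino acids, and had the most negative fold change of the 30 genes, −0.31 ± 0.154 SE (edgeR, adjusted p = 0.38). It ranged from 25.0 to 41.4 CPM in WT and from 19.6 to 34.3 CPM in Dp1Tyb, with Dp1Tyb libraries 4 and 1 lowest. Those are the libraries low in choroid plexus genes, and without them the log2 fold change was −0.13, and with the choroid plexus level as a covariate it was −0.09. Slc7a10 also shares exon sequence with the more abundant Lrp3 on the opposite strand, so its counts are uncertain. Ntsr2, a neurotensin receptor, F3, the tissue factor of coagulation, and Slc14a1, a urea transporter, had log2 fold changes of −0.03, −0.05 and 0.13, and none passed the test. Slc14a1 was at 0.07 without WT library 2 and at 0.08 without Dp1Tyb libraries 1 and 4.

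The 4 nuclear regulators are shared with neural stem cells, and none was called. Sox2, a transcription factor of neural stem cells and astrocytes, was at 26.7, 30.3, 31.1, 31.6 and 41.6 CPM in WT libraries 1 to 5. It was at 26.8, 27.6, 26.8, 26.4 and 30.2 CPM in Dp1Tyb. WT library 5 was far above the others and WT library 1 was among the Dp1Tyb values, and the difference was −0.23 ± 0.0959 SE on the log2 scale (edgeR, adjusted p = 0.304). Without WT library 5 it was −0.12 (edgeR, adjusted p = 0.496). Sox9, which directs glial fate, had −0.19 ± 0.104 SE, and Id3, an inhibitor of differentiation that BMP signals induce, had −0.24 ± 0.139 SE (edgeR, adjusted p = 0.423 and 0.447). Sox9 was at −0.10 without Dp1Tyb libraries 1 and 4, at −0.12 without Dp1Tyb library 1 and at −0.13 without WT library 5. Id3 was at −0.12 without WT library 5 and at −0.10 with the choroid plexus level as a covariate. Hes5, a repressor that Notch induces, had 0.16 ± 0.126 SE (edgeR, adjusted p = 0.582). In the plot of levels by library, WT library 5 was highest of the 10 libraries in Sox9, Sox2 and Id3.

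**Figure D4:**
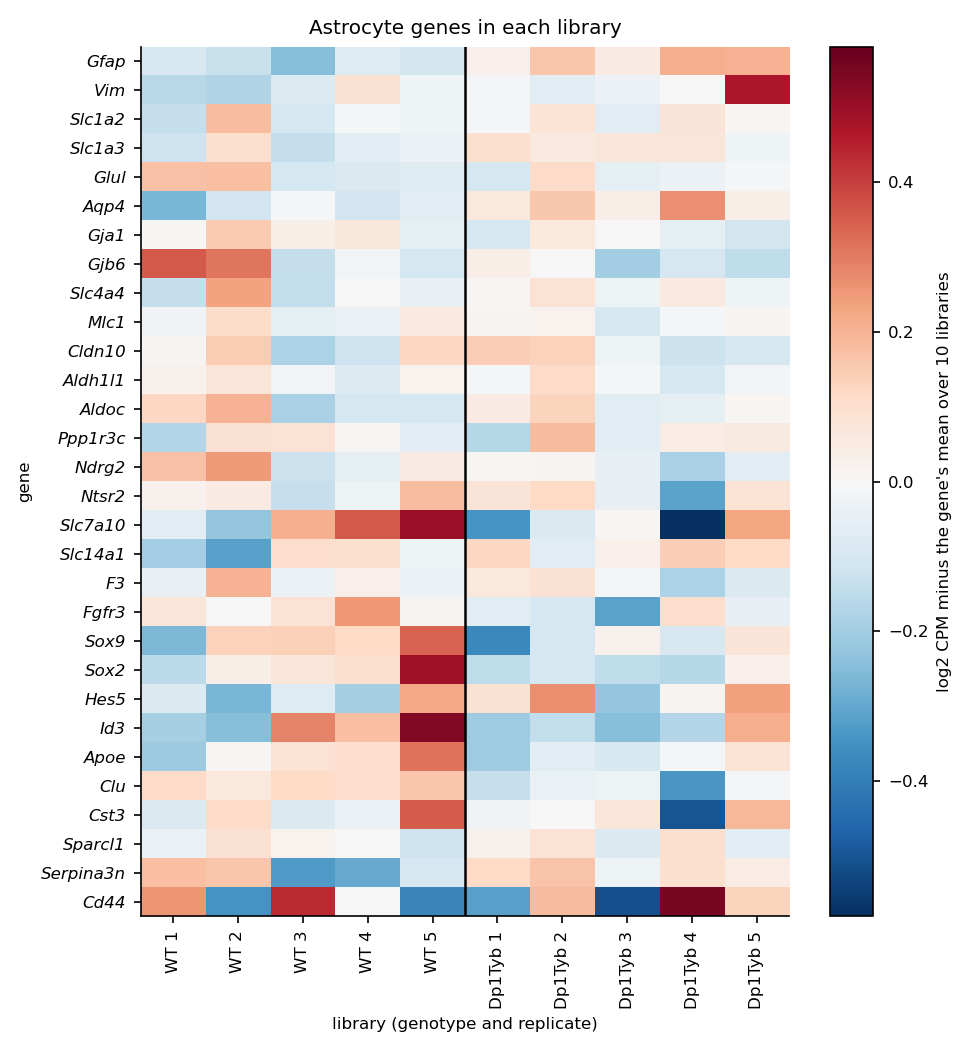
Level of the 30 tested astrocyte genes in each library, as log2 CPM minus the mean of the gene over the 10 libraries (red, above; blue, below; WT left of the line, Dp1Tyb right). Gfap and Aqp4 are above the mean in all Dp1Tyb libraries, Clu is above it in all WT libraries, and most other genes show no split at the line.

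Of the 4 genes of secreted proteins none was called, 3 had negative fold changes, and Clu was the one whose genotypes did not overlap. Clu (chromosome 14, 65968483 to 65981547, plus strand) encodes clusterin, a secreted chaperone and lipid carrier. Its WT levels were 883, 853, 887, 876 and 916 CPM, and its Dp1Tyb levels were 746, 797, 803, 647 and 815 CPM. Every Dp1Tyb library was below every WT library, and Dp1Tyb library 4 was the lowest. The mean was 883 ± 22.6 CPM (SD, n = 5) in WT and 762 ± 69.3 CPM (SD, n = 5) in Dp1Tyb, and the difference was −0.21 ± 0.0585 SE on the log2 scale (95% interval −0.34 to −0.09). This missed the threshold after adjustment in edgeR (adjusted p = 0.111) and passed in DESeq2 (−0.22, adjusted p = 0.0134). Dp1Tyb libraries 4 and 1 were the lowest in Clu and in choroid plexus genes. Without them the log2 fold change of Clu was −0.14 and the adjusted p 0.214, and with the choroid plexus level as a covariate they were −0.15 and 0.212.

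**Figure D5:**
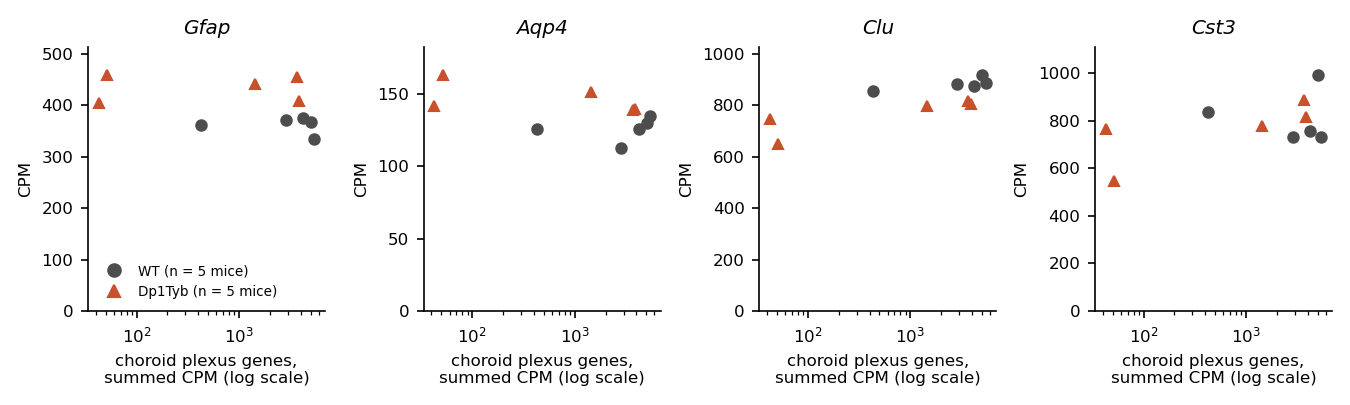
CPM of Gfap, Aqp4, Clu and Cst3 in each mouse (circles, WT; triangles, Dp1Tyb) against the summed CPM of 9 choroid plexus genes on a log axis. Dp1Tyb libraries 1 and 4 lie at 42.8 and 51.3 CPM of choroid plexus genes and hold the lowest values of Clu, whereas Gfap is high in all Dp1Tyb libraries.

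Apoe encodes apolipoprotein E, the main lipid carrier of the brain. It was at 903, 1049.9, 1108, 1118 and 1300.5 CPM in WT libraries 1 to 5 and at 906, 1002.5, 980.5, 1035 and 1104 CPM in Dp1Tyb. The Dp1Tyb values lay inside the WT range, and the log2 fold change was −0.12 ± 0.0824 SE (edgeR, adjusted p = 0.515). Without WT library 5 it was −0.06, and with the choroid plexus covariate −0.07. The ratio of Apoe to Clu, per length, had a mean of 1.99 in WT and 2.14 in Dp1Tyb and did not pass the test (exact permutation test, two-sided, p = 0.421, adjusted over 4 ratios p = 0.444). Cst3, the protease inhibitor cystatin C, ranged from 732 to 992 CPM in WT and from 548 to 888 CPM in Dp1Tyb, with Dp1Tyb library 4 lowest. Its log2 fold change was −0.10 ± 0.116 SE (edgeR, adjusted p = 0.739) and turned to 0.03 without Dp1Tyb libraries 1 and 4. It was −0.01 without WT library 5, 0.00 without Dp1Tyb library 4 and −0.16 without Dp1Tyb library 5. Sparcl1, the matricellular protein hevin, had a log2 fold change of 0.02 and did not pass the test.

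The reactive genes beside Gfap gave no call. Serpina3n, a secreted protease inhibitor that rises strongly in reactive astrocytes, was at 59.4, 58.8, 41.8, 43.0 and 49.0 CPM in WT libraries 1 to 5. In Dp1Tyb it was at 57.0, 58.9, 51.5, 56.0 and 54.1 CPM. The Dp1Tyb values lay inside the WT range, in which libraries 1 and 2 were high, and the log2 fold change was 0.14 ± 0.0931 SE (edgeR, adjusted p = 0.519). It was 0.08 without WT library 3 or 4, and 0.07 with the choroid plexus covariate. Because Serpina3n has near-identical neighbours and reads with several alignments were discarded, its level is uncertain. Cd44, a hyaluronan receptor, was at 5.38, 3.54, 6.07, 4.51 and 3.45 CPM in WT and at 3.62, 5.11, 3.16, 6.60 and 4.93 CPM in Dp1Tyb, with wide overlap (log2 fold change 0.03 ± 0.207 SE, edgeR, adjusted p = 0.962).

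Lcn2 encodes lipocalin 2, an acute-phase protein of reactive glia. It had 347, 63, 0, 6 and 1 counts in WT libraries 1 to 5 and 23, 16, 6, 6 and 3 counts in Dp1Tyb. WT library 1 was far above the rest, with 10.8 CPM against at most 2.62 CPM in any other library, and most other libraries held only a handful of reads. A count of 0 allows up to 3 counts, and with so few reads the genotypes were not compared. WT libraries 1 and 2 also had the highest Gjb6 and Glul of all libraries. Both were above the other WT libraries in 6 of the 30 genes (20%), against 14.9% of all tested genes, and both were below them in 6 (20%), against 16.4%.

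Other genes of astrocytes and their pathways were drawn from lists of 129 genes, of which 125 were tested. S100b was called as higher and Cbs as lower, 2 of 125 beside the 1.11% of all genes. At an unadjusted p under 0.05, 12 had the higher and 16 the lower level in Dp1Tyb (22.4%, against 14.4% of all tested genes), and the genotypes did not overlap for 6 (4.80%, against 3.68%). S100b encodes a calcium-binding protein of astrocytes, and was at 82.1, 86.1, 79.2, 76.7 and 83.0 CPM in WT libraries 1 to 5 and at 99.9, 97.9, 101, 89.4 and 92.7 CPM in Dp1Tyb. All Dp1Tyb libraries were above all WT libraries. Which cells of the bulk tissue gave the S100b counts was not tested. The mean rose from 81.4 ± 3.60 to 96.2 ± 4.94 CPM (SD, n = 5 each), by 0.24 ± 0.0448 SE on the log2 scale (edgeR, adjusted p = 0.0192). The call was lost, with adjusted p-values of up to 0.0658, when WT library 3 or 4 or Dp1Tyb library 1, 2 or 3 was left out.

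Cbs encodes cystathionine beta-synthase, an enzyme of sulfur amino acid metabolism that is enriched in astrocytes. It was at 39.5, 37.0, 33.2, 33.5 and 30.03 CPM in WT libraries 1 to 5 and at 26.5, 26.5, 24.2, 29.96 and 25.5 CPM in Dp1Tyb. The genotypes did not overlap, but WT library 5 and Dp1Tyb library 4 all but touched. The mean fell from 34.6 ± 3.66 to 26.5 ± 2.13 CPM (SD, n = 5 each), by −0.39 ± 0.0762 SE on the log2 scale (edgeR, adjusted p = 0.0277). The call was lost, with adjusted p-values of up to 0.0809, when WT library 1, 2 or 4 or Dp1Tyb library 1, 2, 3 or 5 was left out. In humans both S100B and CBS lie on chromosome 21, whereas in the mouse S100b (chromosome 10) and Cbs (chromosome 17) lie outside the duplicated segment.

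The RefSeq windows before the starts of both called genes are shown for comparison with that of Gfap, from GRCm38.p6 at chr10:76253586-76253835 (S100b, plus strand) and chr17:31637206-31637455 (Cbs, minus strand). The capitals again mark TGGGAA on the opposite strand.
S100b: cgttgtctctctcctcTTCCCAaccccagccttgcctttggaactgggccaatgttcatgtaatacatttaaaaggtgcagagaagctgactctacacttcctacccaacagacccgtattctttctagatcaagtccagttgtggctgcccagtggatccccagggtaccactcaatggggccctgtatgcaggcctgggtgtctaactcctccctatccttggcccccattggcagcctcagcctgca
Cbs: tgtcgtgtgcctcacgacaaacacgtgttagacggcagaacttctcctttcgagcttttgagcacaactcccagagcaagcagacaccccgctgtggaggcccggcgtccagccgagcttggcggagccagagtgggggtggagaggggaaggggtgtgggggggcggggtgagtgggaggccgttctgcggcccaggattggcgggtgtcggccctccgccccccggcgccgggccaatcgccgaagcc
S100b holds 1 match, which begins 234 bases before the start, and Cbs holds none. TTCNNNGAA was in neither window.

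The lists gave these counts, with members included. Of 47 other genes of astrocyte identity, 19 had positive and 28 negative log2 fold changes, with a median of −0.03, and S100b and Cbs were the calls. For glutamate and GABA uptake (10 genes) the median was −0.01, with no call, and Slc6a11, the astrocytic GABA transporter GAT-3, was at 0.08 (edgeR, adjusted p = 0.563). Gap junction, potassium and water genes (14) had a median of 0.00 and no call, with Atp1b2, a sodium pump subunit, at −0.15 (edgeR, adjusted p = 0.184). Glycogen and lactate genes (16) had a median of 0.02 and no call, with Pfkfb3, an activator of glycolysis, at 0.15 (edgeR, adjusted p = 0.197) and the lactate dehydrogenase gene Ldha at 0.11 (adjusted p = 0.258). In the lipoprotein list (10), 8 of the 10 fold changes were negative, with a median of −0.06 and no call. Lcat, which esterifies cholesterol, was at 0.20 (edgeR, adjusted p = 0.361).

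The Notch, BMP and astrogenesis list, whose pathways direct neural precursors to the astrocyte fate, had negative fold changes for 18 of 25 genes and a median of −0.11. None of its genes was called, and 4 of 25 (16%) had the lower and 0 the higher level at an unadjusted p under 0.05, against 6.4% and 7.97% of all tested genes, and 14.4% in either direction. Without the members, 2 of 20 (10%) had the lower level. Beside the members Fgfr3 and Sox2 these included Nfix, a nuclear factor of gliogenesis, at −0.22, and Hes1, a Notch target, at −0.33 (edgeR, adjusted p = 0.191 and 0.285). The member Hes5, a target of the same pathway, had a positive fold change. In the other astrocyte lists, the share in either direction ran from 10% (lipoprotein) to 30% (genes reported after ischaemia). Among the 47 other identity genes, 10 had the lower and 4 the higher level without adjustment (29.8%).

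The reactive lists held Gfap as their only call. In the pan-reactive list, 11 of 13 genes were tested, 6 had positive and 5 negative fold changes with a median of 0.03. Its 7 tested genes that are no members had a median of −0.22, and the small heat-shock protein gene Hspb1 (−0.47) and the ceruloplasmin gene Cp (−0.22) had the smallest p (edgeR, adjusted p = 0.192 and 0.303). Of the genes reported for an inflammatory reactive state (A1), 11 of 12 were tested, with a median of 0.09 and no call. H2-D1, a class I histocompatibility gene, was at 0.21 and Iigp1, an interferon-induced GTPase, at 0.34 (edgeR, adjusted p = 0.285 and 0.313). Of those reported after ischaemia (A2), 10 of 12 were tested, with a median of 0.07 and no call. Emp1, a membrane protein gene, was at 0.45 and Ptgs2, which encodes cyclooxygenase-2, at 0.21 (edgeR, adjusted p = 0.184 and 0.262). At an unadjusted p under 0.05, 3 of the 10 tested A2 genes had the higher level and 0 the lower (30%). In the A1 list 2 of 11 had the higher level and 0 the lower (18.2%). In the pan-reactive list 1 of 11 had the higher level and 2 the lower (27.3%). Of all tested genes, 7.97% had the higher and 6.4% the lower level. The 26 tested members outside the pan-reactive list had a median of −0.04.

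Markers of the other cells in the tissue were present in every library, with no marker at 0. Of 6 neuronal markers, Stmn2, a neuronal tubulin regulator, was called as higher (log2 fold change 0.21, edgeR, adjusted p = 0.0307). At an unadjusted p under 0.05, 4 of the 6 had the higher level (66.7%) and 0 the lower, against 7.97% and 6.4% of all tested genes. The summed level of the 6 markers was 4564 to 5065 CPM in WT and 5126 to 5493 CPM in Dp1Tyb, without overlap. Endothelial markers (5 genes) summed to 191 to 208 CPM in WT and 186 to 192 CPM in Dp1Tyb, so the groups overlapped only slightly. Of the 5, 0 were called, beside 1.11% of all tested genes. Without adjustment, 3 had the lower level (60%) and 0 the higher. Flt1 and Cldn5 had the smallest p, at −0.13 and −0.20 (edgeR, adjusted p = 0.244 and 0.275). The 6 microglial markers summed to 251 to 285 CPM in WT and 203 to 268 CPM in Dp1Tyb, with no call, and Tmem119 was at −0.22 (edgeR, adjusted p = 0.293). What part the neuronal, endothelial and microglial levels had in the values of the astrocyte genes was not tested.

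The other marker lists gave no call. The 6 oligodendrocyte markers summed to 4153 to 5290.3 CPM in WT and 4084 to 5558 CPM in Dp1Tyb, with Mag at 0.12 (edgeR, adjusted p = 0.528). The 4 markers of oligodendrocyte precursors summed to 143 to 165 CPM and 141 to 162 CPM, with Gpr17 at −0.09 and Pdgfra at −0.02 (edgeR, adjusted p = 0.575 and 0.902). All 9 choroid plexus genes had negative fold changes with a median of −0.94, and Kl (−0.90) and Prlr (−0.93) had the smallest p (edgeR, adjusted p = 0.509 and 0.533). Ependymal genes (6) summed to 19.6 to 40.5 CPM and 20.7 to 39.1 CPM, with a median log2 fold change of 0.35. Tmem212 (0.76) and Ccdc153 (0.61) had the smallest p (edgeR, adjusted p = 0.0882 and 0.137). At an unadjusted p under 0.05, 3 of the 6 had the higher level (50%) and 0 the lower, against 7.97% and 6.4% of all tested genes. The part of ependymal levels in the values of the astrocyte genes was not tested either. Meningeal and fibroblast genes (7) summed to 95.5 to 383 CPM and 137 to 286 CPM, with Ogn at −0.40 and Dcn at 0.31 (edgeR, adjusted p = 0.484 and 0.523). Thalamic genes (5), which would mark tissue from outside the hippocampus, summed to 56.1 to 69.3 CPM and 56.3 to 66.8 CPM, with Lef1 at −0.32 and Prkcd at 0.12 (edgeR, adjusted p = 0.161 and 0.41).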

How the data were processed

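Hippocampal RNA from 10 mice was sequenced as stranded, paired-end poly(A) libraries. According to the methods and the submitters' processing notes, the authors trimmed reads with Trim Galore, mapped them to GRCm38 with TopHat2 2.0.12, discarded reads with several alignments, and obtained deposited counts per Ensembl gene with HTSeq (whole numbers, not normalized). Neither the annotation release nor the strand option of HTSeq is given in the sources used here, so genes that overlap another are uncertain. A table of normalized values and one of the authors' own comparison by DESeq2 1.6.3 (means, log2 fold changes, standard errors, statistics and p-values) were not used.

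Of 43629 genes, 42462 matched GENCODE M21 by Ensembl ID, and 1167 without a match (0.103% of all counts) stayed in the tests. Groups follow the genotype label, and no batch is labelled. No pair of the 45 library pairs agreed within sampling noise (chi-square per degree of freedom of at least 4.68). The main test was the quasi-likelihood F-test of edgeR 4.0.16 in R 4.3.3 on the 10 samples, with TMM factors, genes kept by filterByExpr (17237), no covariate and Benjamini-Hochberg adjustment over all tested genes. A gene was called at an adjusted p under 0.05. The test was checked on simulated counts. Ratios of member pairs, with 0.5 counts added, were compared by exact two-sided permutation tests over 252 relabellings (smallest p 0.00794). RPKM was computed from exon lengths. Alternatives were DESeq2 1.42.0, limma-voom (limma 3.58.1), RLE factors, library size only, no filter on low counts, the replicate number as a block, the choroid plexus level as a covariate, and leaving out each library. Replicates are separate mice.

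Values in every library are given for members that were called, had an unadjusted p under 0.05 or did not overlap between genotypes, and for 9 members always shown (Gfap, Aqp4, Aldh1l1, Slc1a2, Gja1, Apoe, Serpina3n, Lcn2 and Cd44). From each other list, the called genes or else the 2 with the smallest p that are no members are named. Some genes that this rule selects are not reported here. The members and lists were chosen with earlier results of these data known. RefSeq promoter windows matched 26 of the 31 genes. Clu has no entry in that table.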

Additional observations from a re-analysis of the deposited data

Results flagged for a closer look

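In groups of 5 mice, 5 values of single libraries stood apart from the other 4 of their genotype by Dixon's criterion, among 70 groups examined. Chance gives about 1 in 20 groups, or 3.5 here.

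Mlc1 was lowest in Dp1Tyb library 3, at 148.4 CPM, against 157.8 to 160.7 CPM in the other Dp1Tyb libraries. Dp1Tyb library 5 was highest in 2 genes: Vim at 55.57 CPM, against 38.36 to 40.26 CPM, and Id3 at 26.05 CPM, against 18.96 to 20.37 CPM. F3 was highest in WT library 2, at 42.02 CPM, against 35.54 to 37.38 CPM in the other WT libraries. Lcn2 was highest in WT library 1, at 10.79 CPM, against 0 to 2.621 CPM in the other WT libraries.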

How the results depend on the processing

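Of the 30 tested members, 1 was called in the analysis reported, 3 by DESeq2 (Gfap, Aqp4 and Clu), 2 without the filter on low counts (Gfap and Aqp4), and 0 to 1 when single libraries were left out (0 without Dp1Tyb replicate 2). Of the other astrocyte and pathway genes, 2 were called, 7 by DESeq2 (among them Agt, Cbs, Fzd2, Mfge8, Prodh and S100b), 4 with the replicate block (Cbs, Fzd2, Mfge8 and S100b), and 0 to 2 when single libraries were left out (0 without WT 4 or Dp1Tyb 1, 2 or 3, and 1 without WT 3). All other settings gave the same number of calls within 1.5 times, but not always of the same genes. Without WT 1 or Dp1Tyb 5 the other astrocyte calls were Fzd2 and S100b, and without WT 2 they were Mfge8 and S100b. Over all genes, 191 were called, 507 by DESeq2, 315 with the replicate block, 120 without Dp1Tyb libraries 1 and 4, and 105 to 218 when single libraries were left out. Same-numbered mice deviated together in some pairs and not in others (correlations of 0.22, −0.03, 0.21, −0.07 and 0.28, and 1 of 10 libraries was closest to its own number). This does not settle whether the numbers pair the mice, and the main test did not pair them. With the block, Gfap had an adjusted p of 0.00696, and Aqp4 of 0.0506. The median member log2 fold change lay between −0.03 and 0.00 when single libraries were left out. Gfap was between 0.23 and 0.29 (adjusted p from 8.73e-05 to 0.0587 over all alternatives), S100b between 0.22 and 0.26, and Cbs between −0.44 and −0.33.

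Members near 0 changed sign, and so did Cst3, which was at −0.10. With the choroid plexus covariate this held for Aldoc (−0.0213), Slc1a2 (−0.000804), Cldn10 (−0.0289), Slc4a4 (−0.015) and Sparcl1 (−0.0215). Without Dp1Tyb libraries 1 and 4, an alternative chosen after seeing the data, it held for Aldh1l1 (0.022), Ntsr2 (0.0266), Cst3 (0.0261), Sparcl1 (−0.0115) and Cd44 (−0.0614), and with library size only for Cldn10 (−0.00507). When single libraries were left out, the ranges spanned 0 for Aldh1l1 (−0.0394 to 0.012), Aldoc (−0.0206 to 0.0752), Ntsr2 (−0.0672 to 0.0328), Cldn10 (−0.0308 to 0.0452), Mlc1 (−0.0344 to 0.00283), Sparcl1 (−0.00419 to 0.0453), Ppp1r3c (−0.022 to 0.067) and Cd44 (−0.134 to 0.14). The causes were not tested.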
